A study of Mus musculus with 2 samples.

Results

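The genes described here are 5 small leucine-rich proteoglycans, Dcn (decorin), Lum (lumican), Bgn (biglycan), Ogn (osteoglycin) and Fmod (fibromodulin). They were chosen by name, and all 5 are among the 31053 genes of both count tables. Cells dissociated from mouse eye cups of embryonic day e13.5 gave 2 libraries, a single one for each genotype. The control library pooled 3 Myrf fl/fl eye cups and the mutant library pooled 3 Rx>cre Myrf fl/fl eye cups. Both groups therefore carry the floxed Myrf alleles, and the mutant also carries a Cre transgene driven by Rx, which is active in the eye field that gives rise to retina and retinal pigment epithelium (RPE). The periocular mesenchyme comes from neural crest and mesoderm, outside that lineage. Cornea, lens and optic nerve had been dissected away, so that corneal stroma, a main site of lumican and keratocan later on, was not sampled as such. The study asked how gene expression in the RPE and its neighbouring cell types differs when Myrf, a membrane-bound transcription factor, is deleted.

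Small leucine-rich proteoglycans are secreted proteins built of repeated leucine-rich motifs, most of which carry glycosaminoglycan chains. Decorin and biglycan belong to class I and carry chondroitin or dermatan sulfate, lumican and fibromodulin belong to class II and can carry keratan sulfate, and osteoglycin belongs to class III. Decorin, lumican and fibromodulin bind collagen fibrils and limit their lateral growth, while decorin and biglycan also bind TGF-beta. In the adult eye they are known for their part in the clarity of the cornea and the strength of the sclera, both of which hold cells derived from periocular mesenchyme.

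In the GRCm38 (mm10) mouse genome the 5 genes lie at 4 places, all on the plus strand. Dcn (chr10:97479609-97518143, 8 exons) is followed after 47.0 kb by Lum (chr10:97565128-97572703, 3 exons), then after 34.2 kb by Kera and after a further 30.4 kb by Epyc. Ogn (chr13:49608046-49624501, 7 exons) is the last of a row of 4 family genes, 15.2 kb from Omd. Fmod (chr1:134037254-134048277, 3 exons) lies 116 kb from Prelp, and Bgn (chrX:73483602-73495933, 8 exons) has no family gene close by on the X chromosome, where Nyx, the nearest of those listed, is 59994 kb away. The coding sequences are of like length, from 894 bases in Ogn to 1128 bases in Fmod.

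The 250 bases before the RefSeq start site were found for 3 of the 5 genes. They are shown because the genes were distributed differently over the cell classes, with Ogn highest in pigment epithelium, Bgn in pericyte-like cells and Fmod rare everywhere. The sequences are from RefSeq on GRCm38.p6, 5′ to 3′ on the plus strand, and capitals mark each match, on either strand, to the 3 words searched, CATGTG (an E-box of the form bound by basic helix-loop-helix zipper factors), TAATCC (a word bound by bicoid-type homeodomain factors) and TATAAA (the TATA box).
Ogn, chr13:49607765-49608014: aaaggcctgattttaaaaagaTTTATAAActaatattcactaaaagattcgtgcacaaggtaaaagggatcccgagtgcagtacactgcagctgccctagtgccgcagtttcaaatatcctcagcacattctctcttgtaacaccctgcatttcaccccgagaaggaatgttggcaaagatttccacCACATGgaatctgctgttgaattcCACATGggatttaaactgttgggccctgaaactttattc
Bgn, chrX:73483351-73483600: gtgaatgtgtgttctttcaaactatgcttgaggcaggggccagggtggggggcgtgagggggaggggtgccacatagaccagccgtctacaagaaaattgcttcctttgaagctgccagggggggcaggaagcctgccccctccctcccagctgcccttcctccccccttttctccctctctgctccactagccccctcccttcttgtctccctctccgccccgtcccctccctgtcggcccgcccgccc
Fmod, chr1:134037004-134037253: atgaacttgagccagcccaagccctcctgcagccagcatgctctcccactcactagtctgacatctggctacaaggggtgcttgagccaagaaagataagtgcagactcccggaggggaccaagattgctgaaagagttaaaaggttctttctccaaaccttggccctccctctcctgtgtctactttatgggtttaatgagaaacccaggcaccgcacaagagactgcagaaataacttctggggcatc

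The Ogn window held CACATG, the reverse complement of the E-box word, at 63 and at 39 bases before the start. It also held TATAAA from 227 and TTTATA from 229 bases before the start, which overlap in a single run. No match to these words was found in the windows of Bgn and Fmod. Of 32851 windows of this length, 12.3% held the E-box word and 1.62% held it at 2 or more places, while 12.4% held the TATA word and 6.25% the homeodomain word. The G and C content was 64.4% for Bgn and 51.2% for Fmod and lowest for Ogn, against a mean of 53.2% over all windows. These matches describe letters in a sequence and no binding was measured.

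After filtering, 5468 control and 6300 mutant cells remained, with medians of 11332 and 11154 unique molecular identifiers (UMIs, counts of captured transcripts) per cell, and 67 cell barcodes occurred in both libraries. Cells were clustered without the 5 genes and the other genes listed here, and a class was called "X-like" from its markers. Each level is a CPM value, that is, the UMIs of the gene divided by those of all genes in the class and library and scaled to counts per 1000000, with exact Poisson 95% intervals that cover counting error only. Because there was 1 library per genotype, no difference between genotypes could be tested against a spread between replicates, and no p-value is given. Clusters that could not be named held 18.4% of control and 14.1% of mutant cells, most of them shallow. All 10 RPE markers were found in the RPE-like class, where they summed to 12441 CPM in the control and 8816 CPM in the mutant, and Myrf itself stood at 73.9 CPM (155 UMIs) and 20.1 CPM (30 UMIs). Reads of a 3′ library need not fall on floxed exons, so the Myrf level is no direct check of the deletion.

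Each proteoglycan had its own distribution over the cell classes. Lum was by far the most often captured, with 13875 UMIs in control and 19940 in mutant cells, followed by Dcn (2501 and 3724), Bgn (1817 and 1759), Ogn (766 and 843) and Fmod (38 and 31). These sums are captured transcripts and are not scaled to gene length. Levels are compared within each gene.

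**Figure D1:**
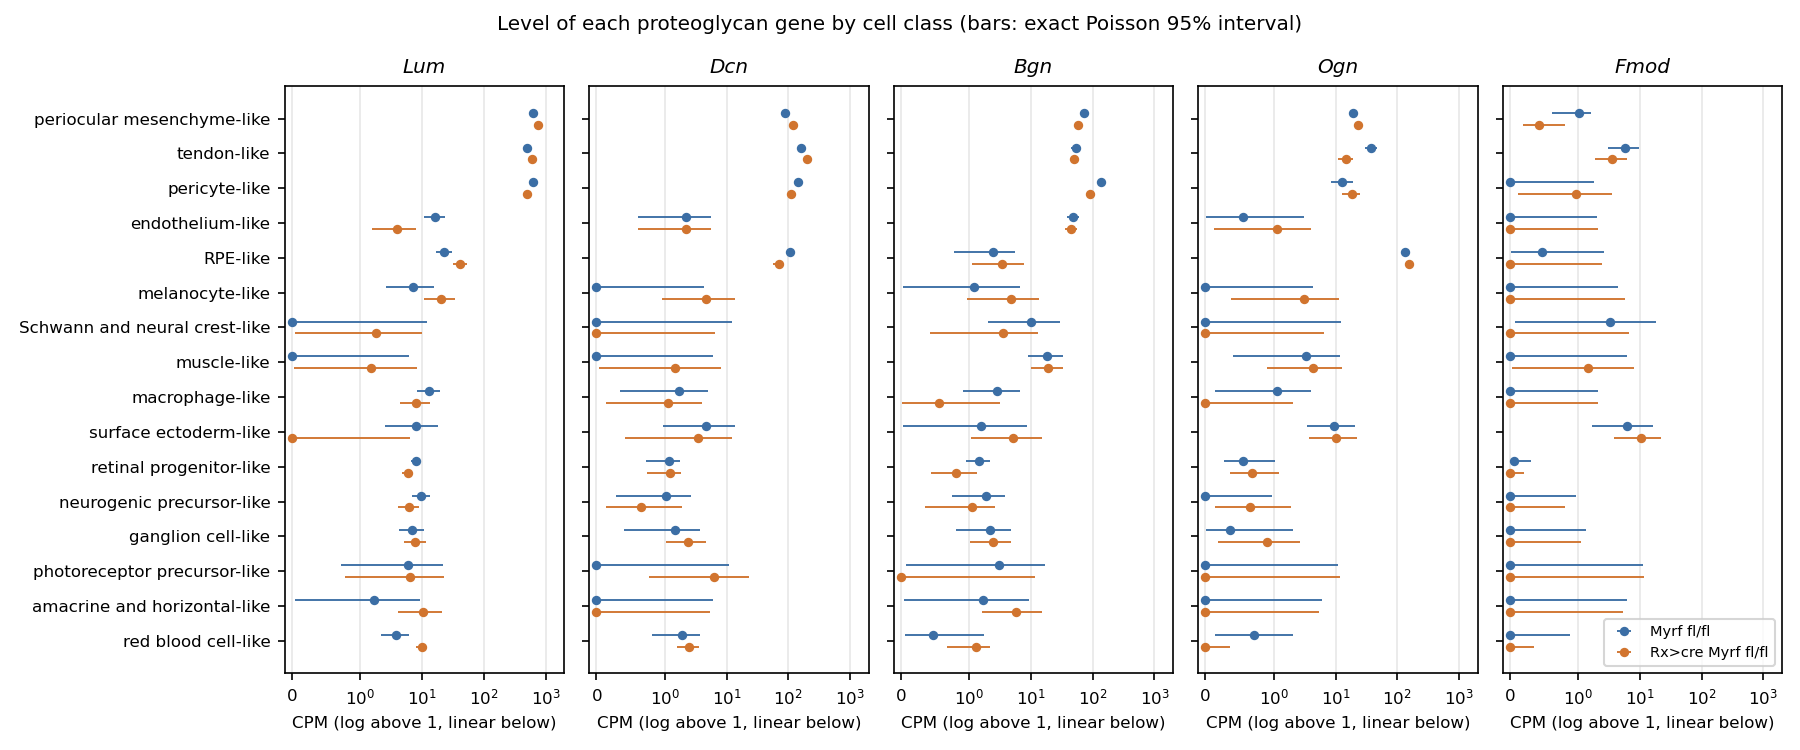
Levels of the 5 genes in 16 cell classes, in CPM on an axis that is logarithmic above 1 and linear below, for the control (blue) and mutant (orange) library. Points are class sums and bars exact Poisson 95% intervals. Lum and Dcn are high in the mesenchymal classes, Bgn reaches the endothelium-like class, and Ogn is highest in the RPE-like class.

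Lum marked the mesenchyme. Its level in periocular mesenchyme-like cells was 631 CPM (619 to 643) in the control and 765 CPM (753 to 777) in the mutant. The pericyte-like class followed at 615 and 499 CPM and the tendon-like class, which expresses Scx, Tnc and Meox1, at 504 and 613 CPM. These last 2 classes changed places between the libraries. No other named class passed 40.8 CPM, the level in mutant RPE-like cells. In the tendon-like class 4 of 6 tendon and 8 of 14 periocular mesenchyme markers met the rule used for naming classes. The tendon marker Tnmd had no UMI there in either library. Thinned to 3000 UMIs per cell, 74.1% of control (71.6% to 76.6%, exact binomial) and 79.0% of mutant mesenchyme-like cells (76.8% to 81.0%) held a Lum UMI, and without thinning 90.3% and 92.6% did. In red blood cell-like cells, where no Lum is expected, the thinned share was 0.562% and 1.69%, at median depths of 22476.5 and 22723.5 UMIs against 13171 and 12317.5 in the mesenchyme-like cells. In the control the retinal progenitor-like level of 7.87 CPM was above the red blood cell-like level of 3.79 CPM. In the mutant it was below, at 5.85 against 9.94 CPM. The intervals did not overlap in either library, and 3 cells held 48 of the 102 mutant red blood cell-like Lum UMIs.

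Dcn shared the mesenchymal classes with Lum but was distributed differently within them. Its level was highest in tendon-like cells, at 160.5 CPM (144 to 178) in the control and 203 CPM (189 to 218) in the mutant, or 1.81-fold (1.61 to 2.03) and 1.69-fold (1.56 to 1.84) the mesenchyme-like level of 88.8 and 120.0 CPM. In pericyte-like cells it was 141 and 112 CPM. In RPE-like cells it was at 106 CPM (92.8 to 121) in the control and 70.2 CPM (57.4 to 85.0) in the mutant, whereas Lum was at 22.9 CPM (16.9 to 30.3) and 40.8 CPM (31.2 to 52.4) there. The control intervals of the pericyte-like and tendon-like classes overlapped, as did the mutant intervals of the pericyte-like and mesenchyme-like classes. Endothelium-like cells, at 2.22 CPM in each library, were no higher than the red blood cell-like level of 1.89 and 2.44 CPM within the intervals.

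Bgn reached into the pericyte-like and endothelium-like classes, although 68.2% of its control and 69.3% of its mutant UMIs lay in mesenchyme-like cells. It was highest in pericyte-like cells, at 134 CPM (119 to 151) in the control and 91.3 CPM (78.7 to 105) in the mutant, which was 1.90-fold (1.65 to 2.16) and 1.59-fold (1.35 to 1.84) the mesenchyme-like level of 71.0 and 57.7 CPM. Endothelium-like cells held 47.7 CPM (38.1 to 58.9) and 44.4 CPM (35.2 to 55.3), and the tendon-like class, at 54.1 and 48.9 CPM, could not be told from them within the intervals. Muscle-like cells held 18.2 and 18.9 CPM on 11 and 13 UMIs. In RPE-like cells only 5 UMIs were counted in each library. Bgn was the only 1 of the 5 genes above 20 CPM in endothelium-like cells of both libraries, where Lum was at 16.1 and 3.89 CPM and 20 of its 29 control UMIs came from 3 cells. The pericyte-like class is close to mesenchyme. In it 5 of 7 pericyte and 7 of 14 periocular mesenchyme markers met the naming rule, and Col1a1 stood at 101% and 99.1% of its mesenchyme-like level.

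Ogn was highest in the pigment epithelium. RPE-like cells held 135 CPM (120.0 to 152, 284 UMIs) in the control and 153 CPM (134 to 174, 229 UMIs) in the mutant. This was 7.18-fold (6.10 to 8.44) the mesenchyme-like level of 18.9 CPM in the control, and 6.72-fold (5.70 to 7.86) that of 22.9 CPM in the mutant. Retinal progenitor-like cells, which share the neuroepithelial origin of the RPE, held 10 and 12 UMIs, or 0.558 and 0.689 CPM. Melanocyte-like cells, the pigment cells of neural crest origin, held 0 control and 2 mutant UMIs, although with 34 and 25 cells a count of 0 still allows 3.54 CPM in the control.

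The share of RPE-like cells with Ogn was 43.2% and 45.8% as counted, at median depths of 3919 and 3853 UMIs. Thinned to 3000 UMIs, which left out 124 of 257 control and 73 of 153 mutant cells, it was 32.3% (24.5% to 41.0%) and 37.5% (26.9% to 49.0%). The thinned share in mesenchyme-like cells was 4.35% (3.28% to 5.65%) and 5.70% (4.59% to 6.99%). In red blood cell-like cells no thinned cell held Ogn. With a floor of 3 counts in place of an exact interval, this allows 1.69% in the control and 0.726% in mutant cells. RPE-like cells were 4.70% of the control and 2.43% of the mutant library, yet they held 37.1% and 27.2% of all Ogn UMIs of kept cells.

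Fmod was rare in every class. It reached 6.25 CPM (1.70 to 16.0) and 10.2 CPM (3.75 to 22.2) in surface ectoderm-like cells, on 4 and 6 UMIs from as many cells, and 5.72 CPM (3.04 to 9.77) and 3.57 CPM (1.90 to 6.10) in tendon-like cells, on 13 UMIs in each library. The order of these classes could not be told within their intervals. In mesenchyme-like cells 18 and 9 UMIs gave 1.03 and 0.426 CPM. Of 14 listed periocular mesenchyme markers, 10 control and 9 mutant ones had a UMI in surface ectoderm-like cells, summing to 90.7 and 66.3 CPM, against 1870 and 1599 CPM for the 8 surface ectoderm markers. Their part in the Fmod counts was not tested.

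**Figure D2:**
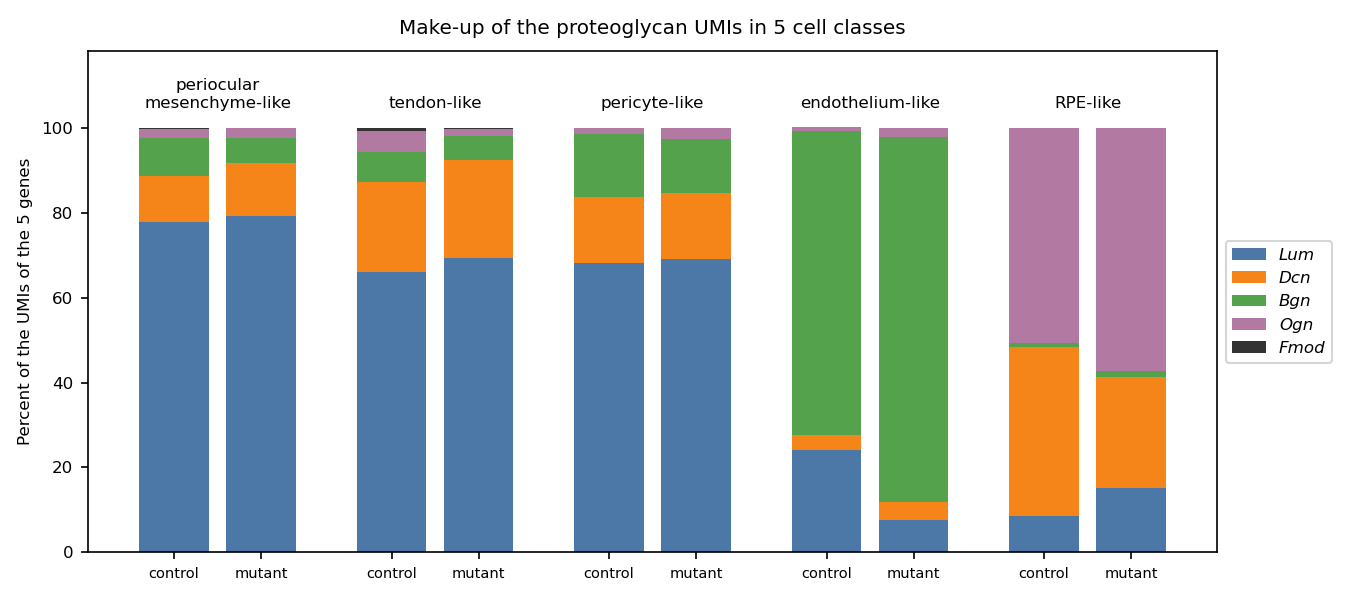
Share of each gene in the summed UMIs of the 5 genes, in percent, for 5 cell classes and both libraries. Lum takes most of the bar in the 3 mesenchymal classes, Bgn in the endothelium-like class and Ogn in the RPE-like class.

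The leading gene of the family differed between cell classes and was the same in both libraries of each class shown. Lum took 77.8% (77.2% to 78.5%) of the UMIs of the 5 genes in control and 79.2% (78.6% to 79.7%) in mutant mesenchyme-like cells. Bgn took 71.7% and 86.0% in endothelium-like cells. In RPE-like cells Ogn took 50.6% (46.4% to 54.8%) and 57.2% (52.2% to 62.2%), Dcn 39.8% and 26.2%, and Lum 8.56% and 15.2%.

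The RPE-like Lum and Dcn counts were followed to single cells, because RNA of neighbouring mesenchyme can reach an RPE droplet. All 14 listed periocular mesenchyme markers had a UMI in RPE-like cells of each library and summed to 111 CPM (97.2 to 126) in the control and 103 CPM (87.4 to 121) in the mutant. Col1a1, a fibrillar collagen gene of mesenchyme, stood at 2.26% and 4.22% of its mesenchyme-like level there, and Lum at 3.62% and 5.33%. Col1a2 stood at 4.17% and 4.43% and Col3a1 at 2.10% and 6.62%. By contrast, Prrx1 (9.10% and 3.58%), Pdgfra (4.87% and 3.03%) and Twist1 (1.81% and 1.46%) were lower in the mutant. Dcn stood at 119.7% and 58.5%, and Ogn at 718% and 670.0%.

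A few cells with several mesenchyme markers carried much of the RPE-like Lum. The 12 control and 9 mutant RPE-like cells with a UMI of 3 or more of these markers held 35.4% and 68.9% of the Lum UMIs, but 7.17% and 21.0% of the Dcn and 8.10% and 11.8% of the Ogn UMIs. Without them Lum stood at 16.0 and 15.3 CPM, whereas Dcn stood at 107 and 66.8 CPM and Ogn at 135 and 163 CPM. The cut of 3 markers was chosen after seeing the data. It was applied without thinning, so cells with more UMIs reach it more easily. The shares of UMIs above are not set against the depth of these cells.

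Between the libraries, Ogn in RPE-like cells differed by a log2 ratio of mutant to control of 0.18 (-0.079 to 0.43), an interval that includes 0. Dcn was lower in mutant RPE-like cells by a log2 ratio of -0.59 (-0.95 to -0.26), or 0.664-fold. With cells over 20000 UMIs left out it was -0.38 (-0.87 to 0.047), an interval that includes 0. The 3 cells richest in Dcn held 43 of its 223 control and 26 of its 105 mutant UMIs. Lum was higher by 0.83 (0.27 to 1.41), but at -0.037 without the mixed cells described above, and Bgn had too few UMIs to place (0.49, -1.63 to 2.61). None of the 4 members with at least 10 UMIs passed a 2-fold difference in RPE-like cells, where 7.15% of 11213 genes did. The summed RPE markers were themselves lower in the mutant, as given above, and their part in these ratios was not tested.

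**Figure D3:**
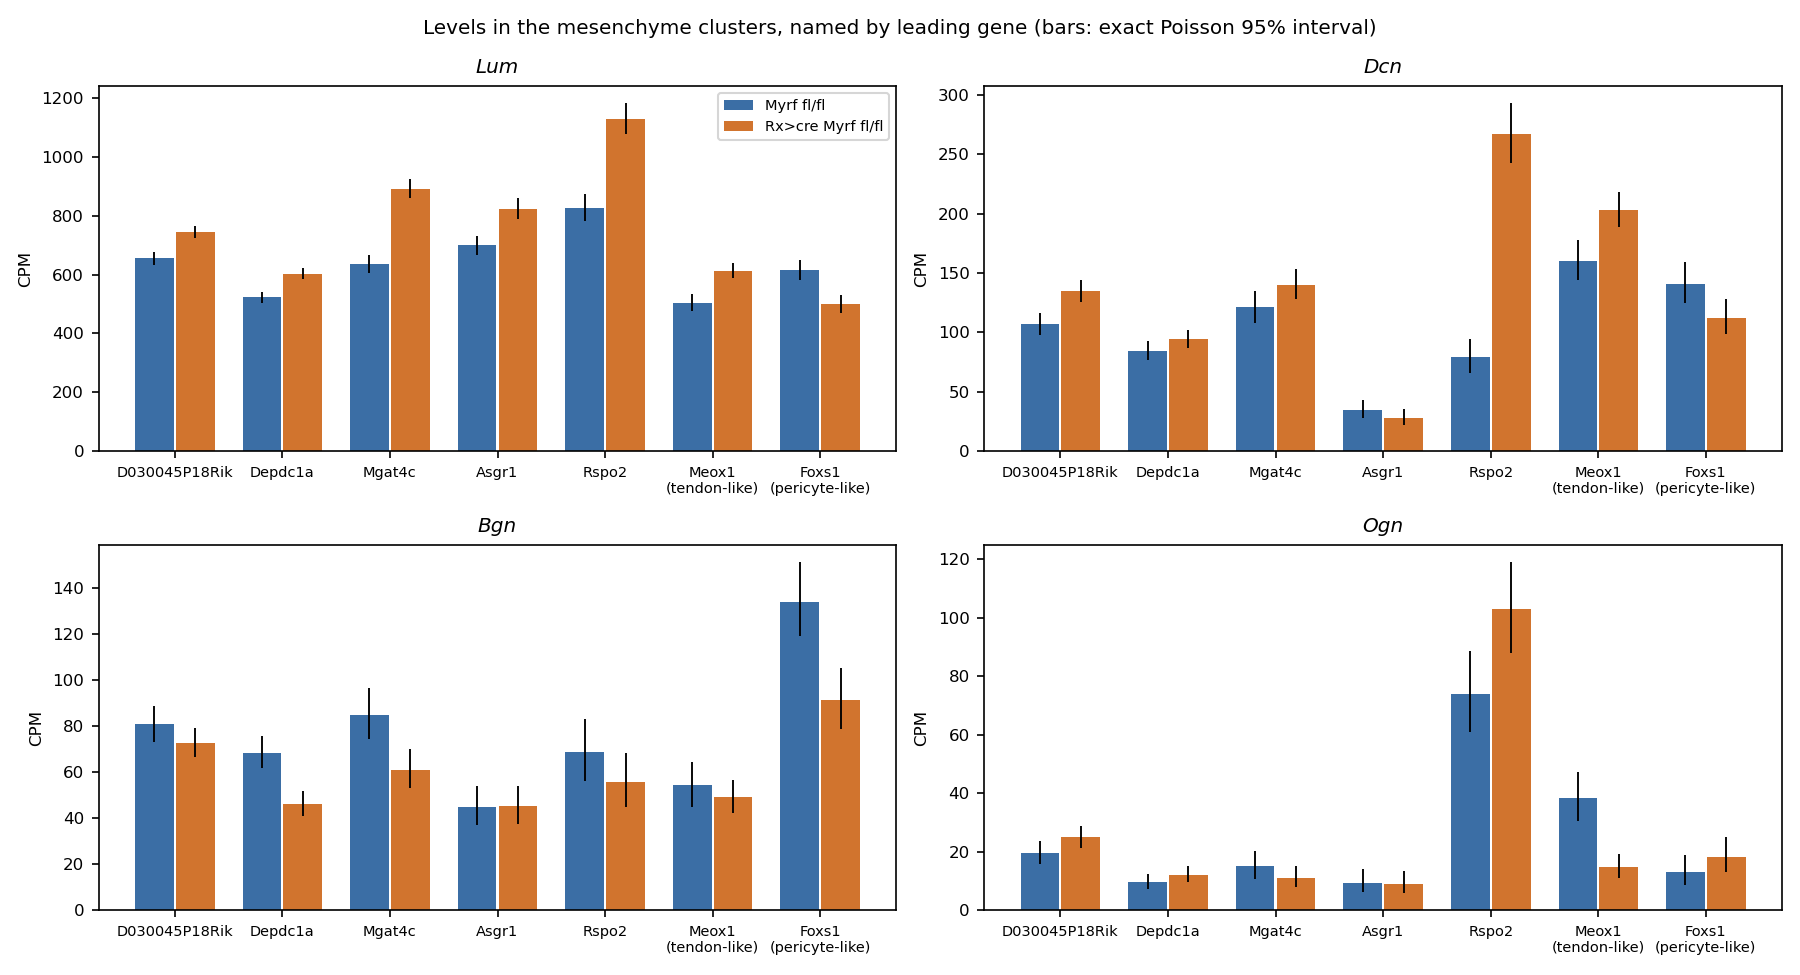
Levels of Lum, Dcn, Bgn and Ogn in CPM in 7 mesenchymal clusters, named by their leading gene, for the control (blue) and mutant (orange) library, with exact Poisson 95% intervals. Ogn peaks in the Rspo2 cluster, which is also where Dcn differs most between the libraries.

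Within the periocular mesenchyme-like class, 5 clusters differed in their proteoglycans. They are named here by their leading gene by fold: the D030045P18Rik cluster (368 control and 523 mutant cells), the Depdc1a cluster of cycling cells (360 and 435), the Mgat4c cluster (221 and 285), the Asgr1 cluster (219 and 240) and the Rspo2 cluster (113 and 131), whose leading genes also include Tbx22, Osr2, Foxl2 and Kera. Lum was the most even, from 523 CPM in the Depdc1a to 827 CPM in the Rspo2 cluster of the control, a 1.58-fold range. Bgn ranged 1.89-fold in the control, from 44.8 CPM in the Asgr1 to 84.7 CPM in the Mgat4c cluster.

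Dcn and Ogn varied more. Dcn was lowest in the Asgr1 cluster, at 34.7 CPM in the control and 27.9 CPM in the mutant, and highest in the Mgat4c cluster of the control (121 CPM) but in the Rspo2 cluster of the mutant (267 CPM). Ogn stood at 73.9 CPM and 103 CPM in the Rspo2 cluster, or 3.94-fold (3.14 to 4.86) and 4.51-fold (3.75 to 5.36) the level of the whole class. In the other 4 clusters Ogn lay between 8.94 and 24.9 CPM. The RPE-like level was above that of the Rspo2 cluster, by 1.82-fold (1.47 to 2.30) and 1.49-fold (1.22 to 1.83).

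Lum and Dcn were higher, and Bgn lower, in the mesenchyme-like cells of the mutant library. The log2 ratio was 0.28 (0.24 to 0.31) for Lum, 0.44 (0.34 to 0.53) for Dcn, 0.28 (0.073 to 0.48) for Ogn and -0.30 (-0.41 to -0.18) for Bgn. All of these are under 2-fold. Only Fmod, with a log2 ratio of -1.20 (-2.61 to -0.047) on 27 UMIs in all, passed 2-fold, which makes 1 of 5 members, against 3.11% of 14383 genes compared. It was within 2-fold without integration (-0.94), at resolution 0.4 (-0.66), under the rule per cell (-0.88) and with an upper limit of 20000 UMIs (-0.90). Red blood cell markers, all 8 of which had a UMI in these cells of both libraries, summed to 632 CPM (620.2 to 644) in the control and 2146 CPM (2126 to 2166) in the mutant. With mitochondrial, haemoglobin and ribosomal protein genes left out of the total, the log2 ratios were 0.29 for Lum, 0.45 for Dcn, 0.29 for Ogn and -0.28 for Bgn. The median log2 ratio of all genes was -0.044.

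The direction was shared by the 5 mesenchyme clusters for Lum alone. Lum was higher in the mutant in 5 of 5 clusters, with log2 ratios from 0.18 to 0.49 and every interval above 0. Bgn was lower in 4 of 5, with intervals below 0 in the Depdc1a (-0.57) and Mgat4c (-0.47) clusters. Dcn was higher in 4 of 5, and in the Asgr1 cluster its ratio was -0.31 (-0.78 to 0.15). No member passed 2-fold in the D030045P18Rik, Depdc1a, Mgat4c and Asgr1 clusters, where 3.02%, 3.67%, 3.91% and 3.19% of genes did.

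**Figure D4:**
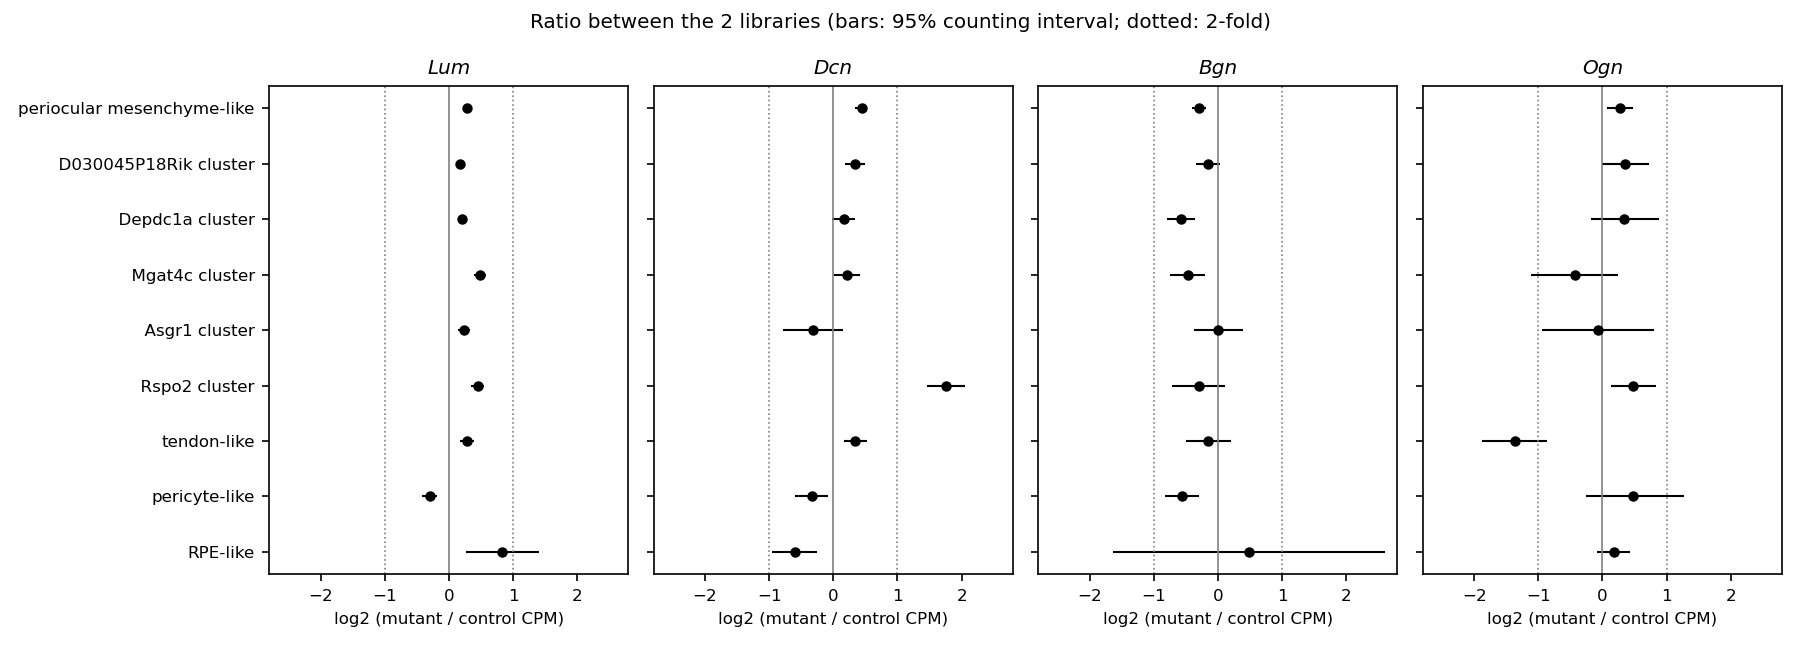
Log2 ratio of mutant to control CPM of Lum, Dcn, Bgn and Ogn in the mesenchymal classes and clusters and in RPE-like cells. Points are ratios of sums with 1 UMI added, bars 95% counting intervals, and dotted lines mark 2-fold. Only Dcn in the Rspo2 cluster and Ogn in tendon-like cells lie beyond 2-fold.

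Among the 5 mesenchyme clusters, the Rspo2 cluster held the widest gap of Lum, Dcn, Bgn or Ogn. Dcn was counted 122 times there in control and 447 times in mutant cells, or 79.1 CPM (65.7 to 94.4) and 267 CPM (243 to 293), a log2 ratio of 1.75 (1.46 to 2.06). It was the only member of the 4 with at least 10 UMIs beyond 2-fold in this cluster, where 5.65% of 10537 genes were. Lum (827 and 1130 CPM) and Ogn differed by log2 ratios of 0.45 (0.35 to 0.55) and 0.47 (0.13 to 0.83). Of cells thinned to 3000 UMIs, 21.4% of control and 40.8% of mutant cells held Dcn.

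The same cluster came from embryos of different sex in the 2 libraries. Cells were called female by a UMI of Xist and none from the Y chromosome, and male by the opposite. In the Rspo2 cluster 102 of 113 control cells were female and 4 male, whereas 15 of 131 mutant cells were female and 77 male. Over all mesenchyme-like cells the female share was 52.8% in the control and 27.9% in the mutant. Female and male cells of a pool come from different embryos. With a single pooled library per genotype, genotype and embryo cannot be told apart in any class, and in this cluster the sex of most cells differs as well. Dcn there was at 80.6 CPM in control female and 97.4 CPM (31.6 to 227, 5 UMIs) in control male cells. It was at 228 CPM (171 to 297) in mutant female and 260.4 CPM in mutant male cells. Both mutant values exceeded both control values, although the intervals of control male and mutant female cells overlapped. For Lum, mutant female cells stood at 590.1 CPM, below the 845 CPM of control female cells, while mutant male cells stood at 1073 CPM.

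**Figure D5:**
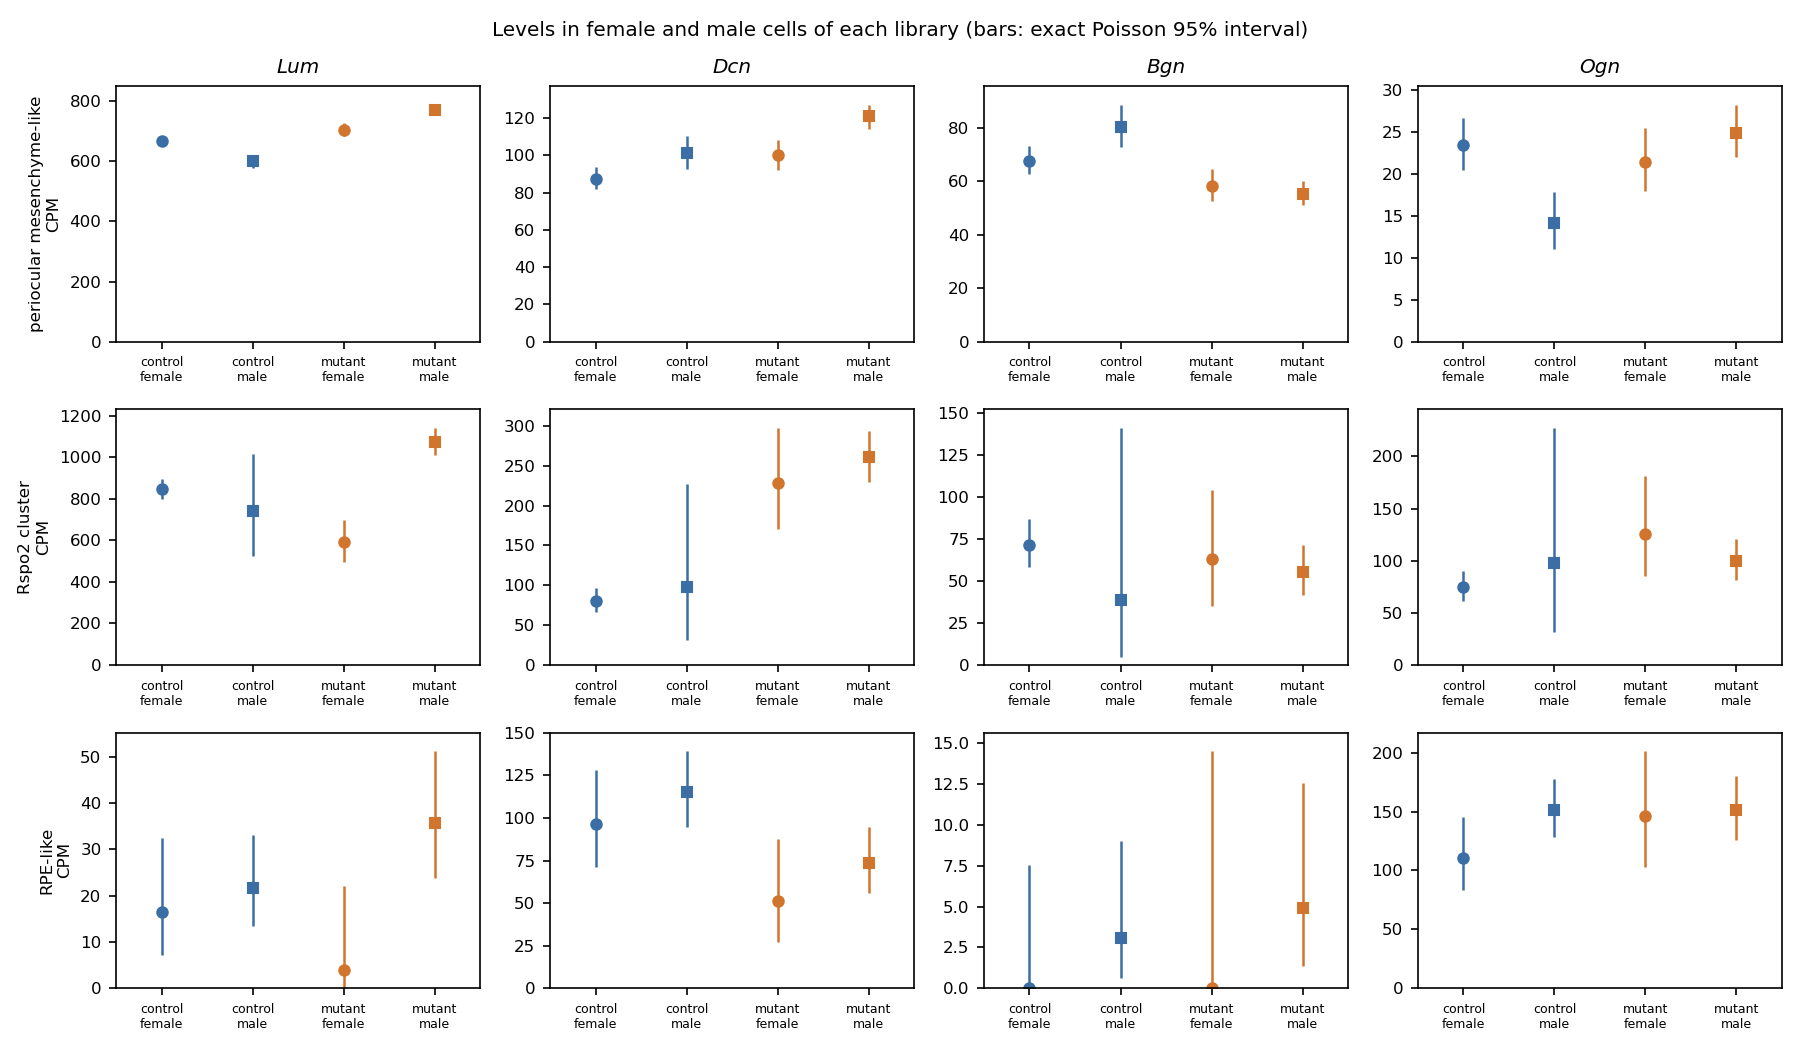
Levels of Lum, Dcn, Bgn and Ogn in CPM in female (circles) and male (squares) cells of the control (blue) and mutant (orange) library, for all periocular mesenchyme-like cells, the Rspo2 cluster and the RPE-like cells. Bars are exact Poisson 95% intervals. For Bgn in the mesenchyme both mutant values lie below both control values, while for Ogn the control female and control male cells lie apart.

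Sex also served as a view of the spread between embryos within a library, although the mix of clusters can differ between the sexes as well. In mesenchyme-like cells Bgn was at 67.8 and 80.5 CPM in control female and male cells and at 58.4 and 55.4 CPM in mutant female and male cells, so that both mutant values lay below both control values. Lum was at 666 and 599 CPM in the control and at 704 and 769 CPM in the mutant, both above the control values, although in female cells the log2 ratio was only 0.08 (0.024 to 0.14). Dcn was at 87.5 and 101 CPM in the control and at 99.9 and 121 CPM in the mutant, so that control male and mutant female cells were alike within their intervals. Ogn was at 23.4 and 14.1 CPM in the control and at 21.4 and 24.9 CPM in the mutant. The gap within the control, a male to female log2 ratio of -0.72 (-1.13 to -0.34), was larger than the gap of 0.28 between the libraries. The Rspo2 cluster held 108 of the 229 Ogn UMIs of control female cells and 5 of the 72 of control male cells. Within that cluster Ogn was at 75.0 CPM in control female and 97.4 CPM (31.6 to 227) in control male cells. The part of cluster make-up in this gap was not tested.

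In RPE-like cells Dcn was lower in the mutant in both sexes, at 96.6 and 115 CPM in control and 51.3 and 73.7 CPM in mutant female and male cells, on 13 to 112 UMIs. Ogn was at 111 and 151 CPM in the control and at 146 and 151 CPM in the mutant. The 2 male values were nearly equal, with a log2 ratio of 0.0015 (-0.36 to 0.36).

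Tendon-like and pericyte-like cells gave further ratios. Ogn was lower in mutant tendon-like cells, at 14.8 CPM (54 UMIs) against 38.2 CPM (87 UMIs), which is a log2 ratio of -1.36 (-1.88 to -0.86), and was the only 1 of 5 members beyond 2-fold there, against 4.21% of 11748 genes. Of the 87 control UMIs, 77 lay in female cells at 50.4 CPM, and control male cells were at 18.3 CPM, the same as mutant female cells. Lum was higher in the mutant tendon-like cells overall (0.28, 0.18 to 0.39) but lower in male cells (-0.33, -0.50 to -0.15), where control female and control male cells stood at 386 and 792 CPM. In pericyte-like cells Lum (-0.30), Dcn (-0.33) and Bgn (-0.56) were lower in the mutant, with intervals below 0, and none of 4 members passed 2-fold, against 4.74% of 10879 genes. For Lum and Dcn this was seen in male cells only, since the female log2 ratios were -0.0044 (-0.22 to 0.20) and 0.0051 (-0.51 to 0.46). The difference between the sexes was not tested.

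Within single mesenchyme-like cells Dcn and Lum were found together more often than their separate frequencies give. Among mesenchyme-like cells thinned to 3000 UMIs, 15.9% of control and 19.5% of mutant cells held both Dcn and Lum, against 13.4% and 17.5% if both were independent. Of the cells with Dcn, 88.2% in each library also held Lum, against 71.0% of control and 76.3% of mutant cells without Dcn. Lum and Ogn were found together in 2.96% and 3.93% of cells, slightly below the 3.23% and 4.50% of independence. In tendon-like cells Dcn and Lum were together in 16.2% of control and 23.5% of mutant cells, close to the 16.0% and 24.4% of independence. These differences were not tested. In RPE-like cells 10 of the 28 control cells with Dcn also held Ogn, and 5 of 12 in the mutant, while of the 5 cells with Lum in each library 0 and 3 held Ogn.

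The neighbours of the 5 genes were measured from a list of 14 other family members. Beside Dcn and Lum on chromosome 10, Epyc (epiphycan, known from cartilage) was at 34.3 and 46.1 CPM in tendon-like cells and at 51.2 and 68.1 CPM in the Rspo2 cluster, and Kera (keratocan, a corneal proteoglycan) counted 20 and 52 times in the Rspo2 cluster, with a log2 ratio of 1.22. In all mesenchyme-like cells Kera was at 3.04 and 6.20 CPM, a log2 ratio of 1.01 (0.56 to 1.52), and Epyc at 13.9 and 17.3 CPM (0.32, 0.079 to 0.56). The genes beside Ogn on chromosome 13 were rare, and Omd, Aspn and Ecm2 had 25, 42 and 20 UMIs in all kept cells together. Podn (podocan) was the only 1 of the 14 with 10 or more UMIs in RPE-like cells, at 22.4 CPM (47 UMIs) in the control and 10.0 CPM (15 UMIs) in the mutant, and it was also found in surface ectoderm-like cells at 31.3 and 40.8 CPM. Optc (opticin, a vitreous proteoglycan) was counted 83 and 60 times, with 22 and 20 UMIs in neurogenic precursor-like cells, Tsku 135 and 156 times, Chadl 164 and 202 times and Prelp 22 and 33 times. Nyx had 11 UMIs in all, Podnl1 3, Nepn 1 and Chad 0.

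The lists around the family were compared in mesenchyme-like cells by counts and medians. Of the other family members, 9 of 14 reached 10 UMIs, 6 of them higher and 3 lower, and their median log2 ratio of mutant to control was 0.32. Kera, Aspn (6 and 17 UMIs) and Optc (15 and 8 UMIs) were beyond 2-fold, 3 of the 9, against 3.11% of all genes compared in this class. Kera and Aspn were higher in the mutant and Optc lower. The counts of Aspn and Optc are too low to place a 2-fold difference. The share over all genes was not matched for counts. The collagens and fibril partners on which the proteoglycans act had a median of -0.077 over 17 of 18 genes, 7 higher and 10 lower and none beyond 2-fold, against the same 3.11%. Among them were Sparc (649 and 681 CPM), Col1a2 (583 and 559 CPM), Col1a1 (485 and 444 CPM) and Fn1, fibronectin (437 and 397 CPM).

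The enzymes that build glycosaminoglycan chains had a median of -0.075 over 24 genes, 7 higher and 17 lower. The most counted were B3gat3 (44.9 and 45.2 CPM) and B3galt6 (31.6 and 32.2 CPM), which make the linker that joins a chain to its protein, B4galt1 (26.8 and 21.2 CPM) and Dse (23.8 and 22.8 CPM), the epimerase that turns chondroitin into dermatan sulfate. Only Csgalnact1, with 3 and 9 UMIs, was beyond 2-fold, 1 of 24 against 3.11% of all genes. Ligands and receptors had a median of -0.13 over 12 of 13 measured genes, 3 higher and 9 lower, with Tgfb2 at 144 and 163 CPM, Lrp1 at 142 and 126 CPM, Igf1r at 69.4 and 61.9 CPM and Egfr at 36.8 and 34.6 CPM. All genes compared had a median of -0.044, with 5623 higher and 8760 lower.

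In RPE-like cells the same partners were present at other levels. Sparc was at 1289 and 1235 CPM and Fn1 at 30.5 and 60.9 CPM. Col1a1, with 23 and 28 UMIs, and Col3a1, at 8.10 and 21.4 CPM, were far below their mesenchyme-like levels. Col11a1, a minor fibrillar collagen gene, was at 36.2 CPM (76 UMIs) in the control and 91.6 CPM (137 UMIs) in mutant cells, a log2 ratio of 1.33 (0.92 to 1.76). Of the 12 collagen and fibril partner genes with at least 10 UMIs in RPE-like cells, 7 were higher and 5 lower in mutant cells, and their median ratio was 0.26 on the log2 scale. Beyond 2-fold upward were Col3a1 (1.36, 17 and 32 UMIs), Col11a1 and Col6a1 (1.34, 4 and 8 UMIs). Lox (-1.19, 15 and 4 UMIs) was beyond 2-fold downward, and the intervals of Col6a1 and Lox include 0. The part of RPE-like cells with mesenchyme markers in these ratios was not tested. Over all genes compared in RPE-like cells 7.15% were beyond 2-fold in either direction.

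Across the 29 clusters, with CPM averaged over both libraries and expressed as log2(CPM + 10), the genes whose pattern was most like a member were named from 12396 genes with at least 200 UMIs. For Lum these included Lox (r = 0.97), which encodes the lysyl oxidase that crosslinks collagen, and Twist1 (0.95). For Dcn they were Kdelr3 (0.93), Lum itself (0.93) and Lox (0.91), and for Bgn Zcchc24, Hic1 and Prrx2 (each 0.91). The genes most like Ogn were Gm15222 (0.86), Ptx3 (0.85), which encodes a secreted pentraxin, and Loxl1 (0.84). Ptx3 was at 45.3 and 37.5 CPM in RPE-like cells and 31.1 and 26.9 CPM in the Rspo2 cluster. Fmod was most like the tight junction genes Cldn4 (0.90) and Cldn3 (0.88), on 69 UMIs in all. Among the members r was 0.93 for Dcn with Lum, 0.80 for Dcn with Ogn, 0.64 for Lum with Ogn and 0.41 for Bgn with Ogn. Clusters share libraries, depth and cell types, so these values are a description.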

How the data were processed

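Cells of e13.5 eye cups were measured on the 10x 3′ platform in 1 library per genotype. The authors deposited raw UMI counts per gene and barcode, made with Cell Ranger 7.1.0 on mm10 per the labels, without normalization (63483835 control and 75228861 mutant UMIs). Whether intronic reads were counted is not given in the sources used here. From these counts, barcodes with fewer than 200 genes (5 control and 9 mutant) or with a mitochondrial share above 15% (515 and 371) were left out. Scrublet doublets (scanpy 1.11.5, expected rate 5%), 51 control and 74 mutant cells, were left out next. Cells were integrated and clustered in Seurat 5.3.0 (R 4.3.3) on 1975 variable features, after the members and listed genes had been taken out of 2000, with 30 dimensions and resolution 0.8. A cluster was named where at least 3 markers of a list were raised 2-fold over the rest in at least 5% of its cells, from the list with the largest such share. It stayed unnamed when shallow with none of those markers among its 10 leading genes. UMIs were summed per class and library.

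Ratios used a pseudocount of 1 UMI, at least 10 UMIs in all, and an exact conditional binomial 95% interval (scipy 1.17.1). Shares of cells used exact binomial intervals after thinning to 3000 UMIs, and floors were 3 counts. The ratio and interval functions, and a draw like that of the thinning, were tested on simulated data. The genes named were the members, other family members with at least 10 UMIs, the 4 most counted genes of each other list, and the 3 genes most like each member, of which some are not reported here. Podnl1, Nepn, Chad, Csgalnact1, Col3a1, Col6a1 and Col11a1 were named after their values were seen. The members, lists and markers were chosen with earlier results of these data known. Gene positions are from GENCODE M21 on GRCm38. The naming thresholds for clusters and the Rspo2 cluster were chosen after seeing the data. Later time points were not analysed here.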

Additional observations from a re-analysis of the deposited data

Results flagged for a closer look

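Dcn moved in opposite directions in different cell classes, by log2 ratios of mutant to control of 0.44 in periocular mesenchyme-like and 0.34 in tendon-like cells but -0.33 in pericyte-like and -0.59 in RPE-like cells. The counting interval of each of the 4 ratios lies to 1 side of 0, and the difference between the classes was not tested.

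Lum was higher in mutant mesenchyme-like (0.28), tendon-like (0.28) and RPE-like (0.83) cells and lower in pericyte-like cells (-0.30). In the RPE-like cells Lum was no longer higher when cells with several mesenchyme markers were left out. That cut was chosen after seeing the data and applied without thinning. The RPE-like ratio was also far smaller when the cells of greatest depth were left out. The parts of marker content and of cell depth in this ratio were not tested. The difference between the classes was not tested.

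Ogn was higher in mutant mesenchyme-like cells (0.28) and lower in tendon-like cells (-1.36), and in both classes control female and control male cells lay apart. The difference between the classes was not tested.

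Barcodes left out for more than 15% mitochondrial UMIs also held proteoglycan UMIs above the red blood cell-like level. The levels were 618 CPM for Lum, 124 CPM for Dcn, 64.4 CPM for Bgn and 27.6 CPM for Ogn in the control, and 517 CPM for Lum, 123 CPM for Dcn, 63.2 CPM for Bgn, 25.3 CPM for Ogn and 3.61 CPM for Fmod in the mutant.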

How the results depend on the processing

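No paired analysis was possible because each genotype has 1 library. Of 125 alternative values of the member ratios in mesenchyme-like and RPE-like cells, 105 stayed within the counting interval of the reported value. Some settings made no difference. In RPE-like cells the lower and higher resolution and no integration left Dcn at -0.59 and Bgn at 0.49. Wide intervals, such as -1.63 to 2.61 for Bgn in RPE-like cells, are also easily met. In mesenchyme-like cells, Dcn (0.44) was 0.19 in female cells, 0.25 in male cells, 0.55 with a mitochondrial limit of 5%, 0.12 under the rule per cell and 0.60 with an upper limit of 20000 UMIs. Lum (0.28) was 0.08 in female cells, 0.36 in male cells, 0.24 with the 5% limit, 0.23 at resolution 0.4 and 0.20 under the rule per cell. Bgn (-0.30) was -0.54 in male cells. Ogn (0.28) turned to -0.12 in female cells and was 0.81 in male cells. In RPE-like cells, Dcn (-0.59) turned to 0.0079 with an upper limit of 2000 UMIs (interval -1.66 to 1.44) and was -0.38 with that of 20000 (interval -0.87 to 0.047). Lum (0.83) turned to -0.41 with the 5% limit and to -0.037 without cells of 3 or more mesenchyme markers, and was 0.11 with the limit of 2000 and 0.036 with that of 20000 UMIs. Ogn (0.18) was 0.72 with the 5% limit and 0.48 with the limit of 2000 UMIs. The causes were not tested. Alternatives that gave under 10 UMIs have no value. Leaving out mixed cells or the 3 cells richest in a gene, and every setting for the Rspo2 cluster, were chosen after seeing the data, and Dcn stayed higher in that cluster in 13 of 13 settings, from 1.16 to 1.88. Of the 3 genes most like a member, Spearman's rho kept 2 for Lum, 1 for Dcn and 0 for Bgn, Ogn and Fmod, and a higher minimum of UMIs kept 3 for Lum, Dcn and Bgn, 1 for Ogn and 0 for Fmod. Shares of cells moved with the depth of thinning. Counts under about 30 UMIs, which include every Fmod value by class, give intervals too wide to place a 2-fold difference.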
